A study of Mus musculus with 2 samples.

Results

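Accessible chromatin around the mitochondrial carrier genes was mapped with DNase-seq in mouse adipocytes. DNase-seq sequences the DNA ends left by the endonuclease DNase I, which cuts where chromatin is open, and a peak is a short stretch where cutting is concentrated. The carrier genes were taken as all protein-coding genes of GENCODE release M21 whose symbol is Slc25a followed by a number, except Slc25a1, which gave 46 of 21938 protein-coding genes on the assembled chromosomes. No measured value entered that choice. The adipocytes came from 3T3-L1, an established preadipocyte line that accumulates fat droplets after hormonal induction, and were collected on day 8 of differentiation in vitro. The labels name 1 group of 2 biological replicates and mention neither a genetic change nor a further treatment. There was no undifferentiated or other control library among those analysed, so no comparison between conditions could be made. Both libraries carry the same donor record, and no label states whether the cultures were grown or differentiated separately. A strain label names C57BL/6J, although 3T3-L1 is generally described as Swiss-derived, so no strain was assumed.

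Replicate 1 held 133695 peaks and replicate 2 held 216556, and 117590 merged regions contained a peak of both and are called shared. The sequencing depth of either library is unknown. All 8 adipocyte marker genes had a promoter peak in both libraries. Of 3 preadipocyte markers only Pdgfra had one, and none of the 3 endothelial, 3 blood, 2 heart, 2 liver, 2 testis and 3 brown fat markers had one in both. In replicate 2 alone, Pecam1 (endothelium, value 84), Adgre1 and Cd68 (blood and macrophage, 57 and 97) and Dio2 (brown fat, 42) had one. Ckm of 3 skeletal muscle markers (48 in replicate 1 and 85 in replicate 2) and Snap25 of 2 neuronal markers (60 and 104) had one in both libraries. The libraries differ in peak number, so every count that uses 1 library is given for each.

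Mitochondrial carriers are a family of membrane proteins built on a common fold, most of them in the inner mitochondrial membrane. Each moves a small set of solutes, often by exchanging one for another, and together they link metabolism in the cytosol with the matrix. The adenine nucleotide translocases exchange ADP for ATP, and the phosphate carrier supplies phosphate to the ATP synthase. The dicarboxylate and oxoglutarate carriers move malate and related acids, and the carnitine-acylcarnitine carrier brings in fatty acids for oxidation. In fat cells the carriers serve both the export of carbon and reducing power for fatty acid synthesis and the import of fuels.

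Most carrier genes had open promoters in these adipocytes. A promoter was called accessible when both libraries had a peak overlapping the 1000 bp to either side of an annotated start site of the gene. This held for 40 of the 46 carriers (87.0%), against 57.2% of all protein-coding genes. The same 40 genes had a promoter peak in replicate 1, where the share of all genes was 57.5%, and in replicate 2, where it was 61.7%. The 6 genes without one in either library were Slc25a2, Slc25a37, Slc25a41, Slc25a43, Slc25a48 and Slc25a54. All comparisons with other genes are descriptions, since 1 group of 2 libraries allows no test of a condition.

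Among the roles, the group named di- and tricarboxylate, keto acid and acyl carriers held Slc25a10, Slc25a11, Slc25a20, Slc25a21, Slc25a34 and Slc25a35. None of these is described here as a tricarboxylate carrier. All of them had an accessible promoter, 6 of 6. The others were 14 of 16 nucleotide and cofactor carriers, 13 of 15 carriers of amino acids, glutathione and methyl donors, 5 of 6 carriers of phosphate, protons and iron, and 2 of 3 remaining members. Other mitochondrial lists had similar or higher shares. The respiratory chain and ATP synthase list had 83 of 90 genes (92.2%), the other inner membrane transporters, which include the pyruvate carrier genes Mpc1 and Mpc2 and the calcium uniporter gene Mcu, 11 of 11, and the outer membrane channels and import factors 14 of 14. Of the enzymes that work with the carriers 18 of 22 had one, the exceptions being Cpt1b, Alas2, Otc and Ass1, the last of which had a peak in replicate 2 only. Among 5 genes of the same protein family with other symbols, Ucp2, Ucp3, Mtch1 and Mtch2 had one and Ucp1, the uncoupling protein of brown fat, did not. The solute carriers of other families, most of which act in other membranes, had 171 of 322 (53.1%).

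**Figure D1:**
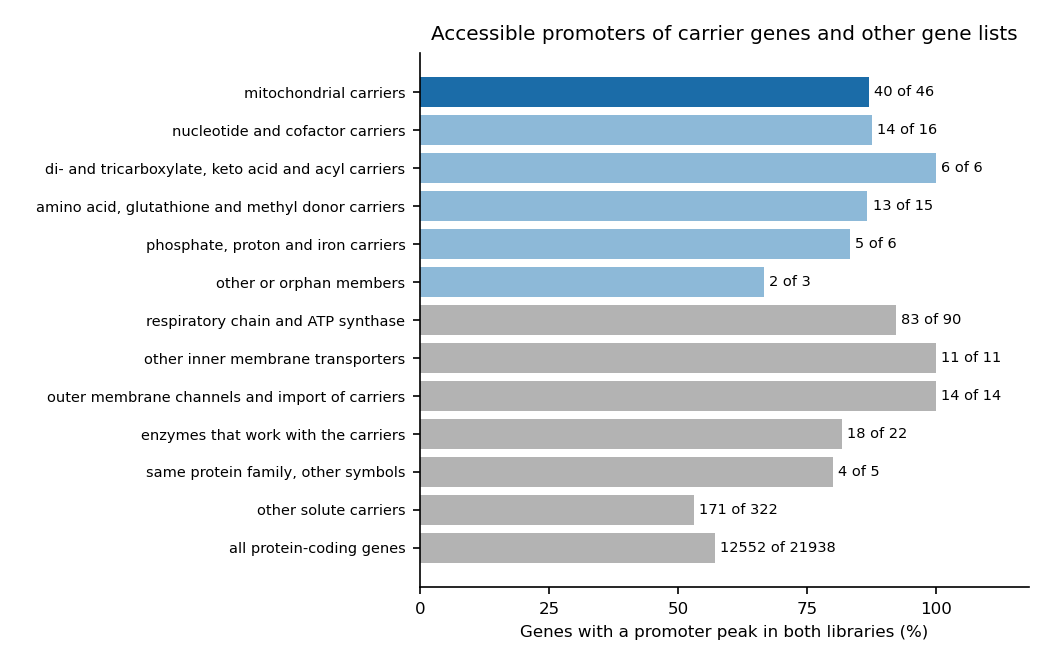
Share of genes with a promoter peak in both libraries (x axis, percent) for the 46 mitochondrial carriers, their 5 role groups, 6 other gene lists and all protein-coding genes, with counts beside the bars. The carriers stand at 40 of 46, close to the respiratory chain (83 of 90) and above the other solute carriers (171 of 322).

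Each peak carries a deposited value, a whole number from 1 to 150 with no stated scaling, so values were ranked within a library and given as percentiles of its peak list. Over the 40 accessible carriers the strongest promoter peak had a median value of 95.0 in replicate 1 (range 16 to 136) and 138 in replicate 2 (range 50 to 150). The median percentiles were 90.7 and 96.1, and those of all genes with an accessible promoter were 91.9 and 95.1. In replicate 1, 23 carriers had a peak in the top 10% of the list (57.5%, against 56.7% of all accessible genes), and in replicate 2 there were 32 (80.0%, against 71.2%). The ranks of open carrier promoters were thus close to those of other open promoters.

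The 40 genes had 88 promoter entries in 86 distinct shared regions, and the median distance from a region's centre to the nearest start site was 178 bp. Of the 88, 47 lay within 250 bp of that site. There were 14 genes with 1 promoter region, 16 with 2 and 10 with 3 or more, the most being 7 at Slc25a25. Start sites within 1000 bp of a start of another protein-coding gene were found for 10 of the 46 carriers (21.7%, against 14.6% of all genes). Their partners were Rnf167 for Slc25a11, Crb3 for Slc25a23, Naif1 for Slc25a25, Cyp39a1 for Slc25a27, Dcaf13 for Slc25a32, Dbf4 for Slc25a40, B930094E09Rik for Slc25a46 and Zcchc18 for Slc25a53, with Slc25a29 and Slc25a47 partners of each other. A peak between such paired starts cannot be given to one gene of the pair.

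**Figure D2:**
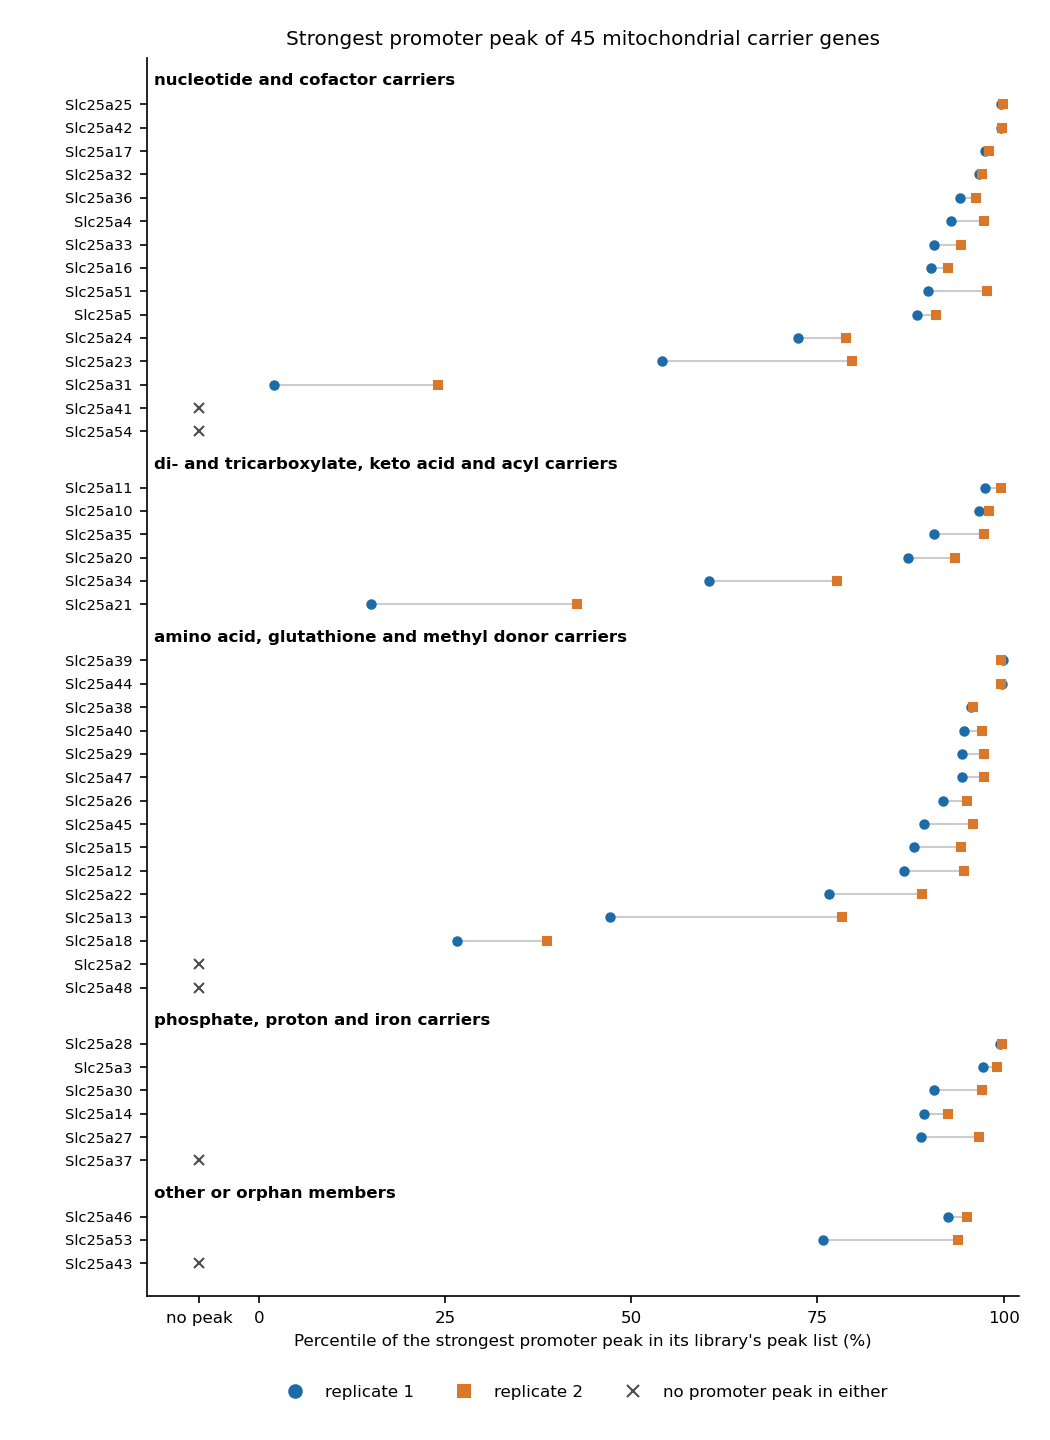
Percentile of the strongest promoter peak in its library's peak list (x axis, percent) for 45 carrier genes, in role groups, with circles for replicate 1, squares for replicate 2 and crosses for the 6 genes with no promoter peak. Most genes sit in the upper range in both libraries, while Slc25a31, Slc25a21 and Slc25a18 lie far to the left.

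The sequence under some of the strongest promoter peaks carried a CCAAT box, the site bound by the factor NF-Y. In the 300 bp from 250 before to 50 after each gene's annotated 5′ end, the NF-Y letters AGCCAAT, searched on both strands, were present at 10 of 46 carriers (21.7%), against 10.5% of windows of all accessible genes and 9.29% of all windows. Those carriers were Slc25a10, Slc25a13, Slc25a25, Slc25a27, Slc25a28, Slc25a29, Slc25a35, Slc25a36, Slc25a44 and Slc25a47, and the Slc25a29 and Slc25a47 windows share 1 match. In the central 150 bp of the strongest shared promoter region, 8 of 40 carriers (20%) had a match, against 9.11% of 12538 such regions over all genes. The 1 region that Slc25a29 and Slc25a47 share was counted for each of them. The 3 promoter sequences that follow are shown because each lies under a high peak and holds a match. They are GRCm38 plus-strand sequence with matches in capitals. Only the searched letters are in capitals. The Slc25a28 and Slc25a29 sequences also hold CCAAT with other flanking letters, on 1 strand or the other, left in lower case. The Slc25a28 peak, chr19:43674976-43675145, lies 180 bp before the start of this minus-strand gene. The Slc25a29 stretch, chr12:108835884-108836045, is the part of a peak that lies between the diverging 5′ ends of Slc25a29 and Slc25a47, and it also holds the EBF letters CCCNNGGG. The Slc25a25 peak, chr2:32424076-32424245, lies 156 bp before a start site inside the gene, and holds NF-Y, C/EBP (TTGNNCAA) and CREB (TGACGTCA) matches in that order.
Slc25a28 promoter: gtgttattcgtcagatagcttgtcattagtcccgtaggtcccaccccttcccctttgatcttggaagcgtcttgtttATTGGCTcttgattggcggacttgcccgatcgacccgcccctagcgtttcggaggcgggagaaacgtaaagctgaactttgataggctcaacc
Slc25a29 and Slc25a47 promoter: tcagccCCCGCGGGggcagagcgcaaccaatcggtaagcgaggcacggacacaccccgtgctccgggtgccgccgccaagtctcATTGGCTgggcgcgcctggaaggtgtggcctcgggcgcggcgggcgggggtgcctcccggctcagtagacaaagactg
Slc25a25 internal promoter: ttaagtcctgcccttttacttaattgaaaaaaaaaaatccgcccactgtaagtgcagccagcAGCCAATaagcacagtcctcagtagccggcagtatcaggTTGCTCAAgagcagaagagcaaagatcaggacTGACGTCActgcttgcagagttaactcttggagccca

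Other promoter motifs were closer to their shares at other open promoters or were absent. The ETS letters CCGGAAG were present in 9 carrier windows (19.6%, against 16.6% of accessible genes and 10.8% of all): Slc25a3, Slc25a11, Slc25a17, Slc25a20, Slc25a25, Slc25a26, Slc25a38, Slc25a46 and Slc25a54. EBF letters were in 11 (23.9%, against 17% and 15.8%), and the SP/KLF letters GGGGCGGGG were in 6 (13.0%, against 19.9% and 14.5%). A match to the NRF1 letters CGCATGCG, a site common at genes of the respiratory chain, was in none of the 46 windows, where 3.67% of accessible genes had one. No NRF1 share was computed for the respiratory chain list, so the carriers were not set against it. CREB letters were in 2 windows, those of Slc25a26 and Slc25a36 (4.35%, against 3.34%), and a PPAR-RXR DR1 element was in the window of Slc25a45 alone (2.17%, against 0.717%). C/EBP letters were in 2 windows, those of Slc25a4 and Slc25a12 (4.35%, against 5.31%), and AP-1 letters TGANTCA were in that of Slc25a13 (2.17%, against 5.08% of accessible genes and 6.91% of all). No window held the ERR letters TCAAGGTCA, the glucocorticoid response element or the full NFI site. Outside the windows, the Slc25a39 promoter region chr11:102407856-102408025 held the ERR letters at chr11:102407862-102407870. For such matches at any position of a region, no share over all genes was computed. A match is a run of letters and says nothing of occupancy.

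**Figure D3:**
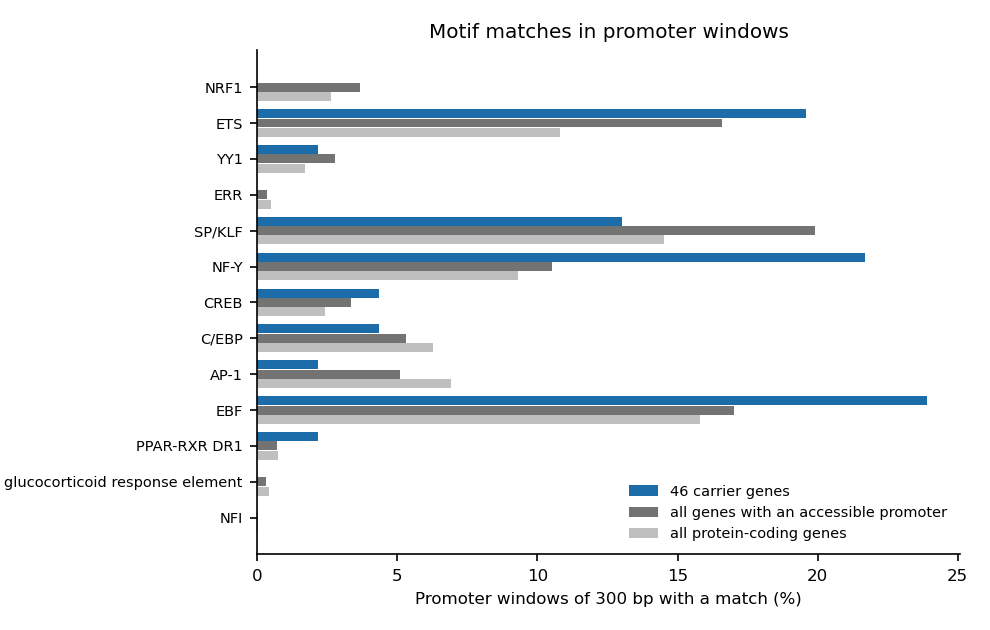
Share of 300-bp promoter windows with a match to each of 13 motifs (x axis, percent), for the 46 carrier genes, all genes with an accessible promoter and all protein-coding genes. NF-Y shows the widest gap between carriers (21.7%) and all accessible genes (10.5%), and no carrier bar is drawn for NRF1, ERR, the glucocorticoid response element or NFI, which had no match.

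In the same windows the median ratio of observed to expected CpG was 0.660 for the 40 accessible carriers and 0.536 for the 6 others, against 0.73 and 0.231 for all genes with and without an accessible promoter. A ratio over 0.6, a common mark of CpG islands, was reached by 25 of 40 accessible carriers (62.5%, against 65.3% of accessible genes) and by 0 of the other 6. The range among those 6 was 0.248 to 0.594. Their median was thus above that of the closed promoters of the genome, of which 16.3% were over 0.6.

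Shared peaks centred over 1000 bp away from any start of a protein-coding gene were called distal and given to the gene of the nearest start within 100 kb. The nearest start is a rule of assignment, and no contact between peak and gene was measured. The carriers had 172 distal shared peaks, 186 distal peaks in replicate 1 and 357 in replicate 2. At least 1 distal shared peak was found at 36 of the 46 genes (78.3%, against 67.8% of all genes), and the median was 2 peaks, as it was over all genes. With either library alone the median was 2.50 (replicate 1) or 4 (replicate 2), against 2 and 3 over all genes. From the length of genome assigned to each gene, its territory, and the genome-wide density of 4.95 distal shared peaks per 100 kb, 129 would be expected, so that the ratio was 1.33. It was 1.29 with the peaks of replicate 1 and 1.44 with those of replicate 2. A ratio above 1 was not particular to the carriers. With shared peaks it was 1.15 for the respiratory chain and ATP synthase, 1.16 for other solute carriers and 1.17 for other inner membrane transporters. Higher ratios were those of outer membrane channels and import factors (1.84), enzymes that work with the carriers (1.90) and family members with other symbols (3.26). More peaks than expected were found at 26 carriers (56.5%, against 43.1% of all genes).

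A few genes held most of these peaks. The 10 carriers with the most held 102 of the 172 (59.3%). They included Slc25a26 with 15, Slc25a10 and Slc25a13 with 14 each, Slc25a21 with 10, Slc25a25 and Slc25a33 with 9 each, and Slc25a5, Slc25a28 and Slc25a30 with 7 each. No distal shared peak was assigned to Slc25a2, Slc25a3, Slc25a11, Slc25a20, Slc25a22, Slc25a23, Slc25a27, Slc25a38, Slc25a41 and Slc25a46. There were 4 regions, including those at Slc25a15, Slc25a25 and Slc25a34, that lay at the edge of the promoter window and were counted as both promoter and distal. Of the 172, 90 were intergenic (52.3%), 72 lay in an intron of the gene itself (41.9%), 5 in its exons and 5 in another gene. The median distance to the nearest start was 9.84 kb, against 14.3 kb for all distal shared peaks.

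**Figure D4:**
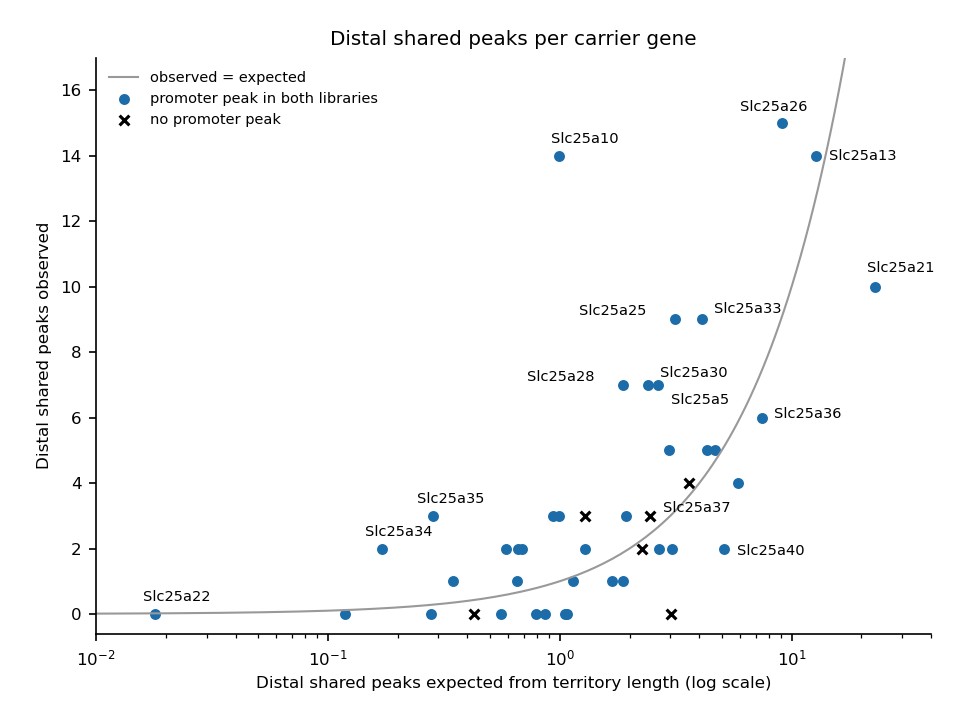
Distal shared peaks observed (y axis, number) against the number expected from the length of genome assigned to the gene (x axis, log scale), with 1 point for each of 45 carrier genes, crosses for the 6 genes without a promoter peak and a line where both are equal. Slc25a10 stands far above the line with 14 observed and 0.993 expected, and Slc25a21 below it with 10 observed and 23.0 expected.

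The dicarboxylate carrier gene Slc25a10, whose product exchanges malate and succinate for phosphate and is abundant in white fat, had the largest excess of distal peaks over expectation among the carriers. Its gene, ENSMUSG00000025792.9, spans chr11:120491840-120499187 on the plus strand. The strongest promoter peak, chr11:120491616-120491825, had a value of 113 in replicate 1 and 143 in replicate 2, percentiles 96.7 and 98.1. With its 6 promoter regions and 14 distal ones, 20 shared regions lay within 24.7 kb. Replicate 1 had 16 distal peaks and replicate 2 had 22, where 0.993 shared ones were expected from a territory of 20.1 kb. The 14 distal values ran from 24 to 106 in replicate 1, the highest at chr11:120513156-120513325, and were 51 to 139 in replicate 2. Across the genome 1131 genes (5.16%) had at least 14 distal shared peaks, and 3 of those had an expected number as small, among 6390 genes that did. This gene was singled out after its values were seen.

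A run of distal regions past the 3′ end of Slc25a10 includes one with a PPAR-RXR DR1 element in its central 150 bp. DR1 is the paired half-site bound by PPARG with RXR, the receptors that direct fat cell differentiation. The region, chr11:120500556-120500765, had a value of 85 in replicate 1 and 134 in replicate 2, and its centre lay 2936 bp past the nearest start site. It is shown on the plus strand, GRCm38, with the DR1 at chr11:120500590-120500602 in capitals.
Slc25a10 distal region: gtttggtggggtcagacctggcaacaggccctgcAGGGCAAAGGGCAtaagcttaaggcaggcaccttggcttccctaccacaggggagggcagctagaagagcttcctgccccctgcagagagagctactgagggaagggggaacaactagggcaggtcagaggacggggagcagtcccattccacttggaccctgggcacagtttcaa
In the central 150 bp the element was present in 1 of 172 carrier distal regions (0.581%) and in 0.971% of all distal shared peaks. Outside that centre, the Slc25a10 region chr11:120513156-120513325, its highest in replicate 1, held a second DR1 at chr11:120513159-120513171. No further carrier distal shared region held one at any position. The share of all distal shared peaks with a DR1 at any position was not computed, so this wider search has no background.

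Neither Slc25a11 nor Slc25a20, of the same role, had a distal shared peak. Slc25a11, the oxoglutarate carrier of the malate-aspartate shuttle (ENSMUSG00000014606.14, chr11:70644196-70647479, minus strand), had a single shared promoter region, chr11:70647056-70647345, at 116 in replicate 1 and 148 in replicate 2. A second promoter region, chr11:70646276-70646425, was in replicate 2 only, at 75. The territory of Slc25a11, 2.38 kb, held no distal peak in either library, with 0.118 expected. Slc25a20, the carnitine-acylcarnitine carrier (ENSMUSG00000032602.6, chr9:108662088-108684641, plus strand), likewise had 1 promoter region, chr9:108662016-108662165, at 87 and 131. It had no distal peak in replicate 1 and 1 in replicate 2. Both genes thus showed a single shared region at their start and no shared distal site.

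Slc25a21, the oxoadipate carrier gene, has the longest body of the family at 485 kb (ENSMUSG00000035472.14, chr12:56712634-57197472, minus strand). Its only promoter region, chr12:57158396-57158565, had low values of 25 in replicate 1 and 63 in replicate 2, percentiles 15.1 and 42.7, and its centre lay 764 bp past an internal start site. It had 10 distal shared peaks where 23.0 were expected from its territory, the strongest at chr12:56986156-56986345 with 51 and 83. Of the 2 related members with less defined substrates, Slc25a34 had promoter values of 53 and 101 and 2 distal peaks (0.171 expected). Slc25a35 had 95 and 141 and 3 distal peaks (0.285 expected).

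**Figure D5:**
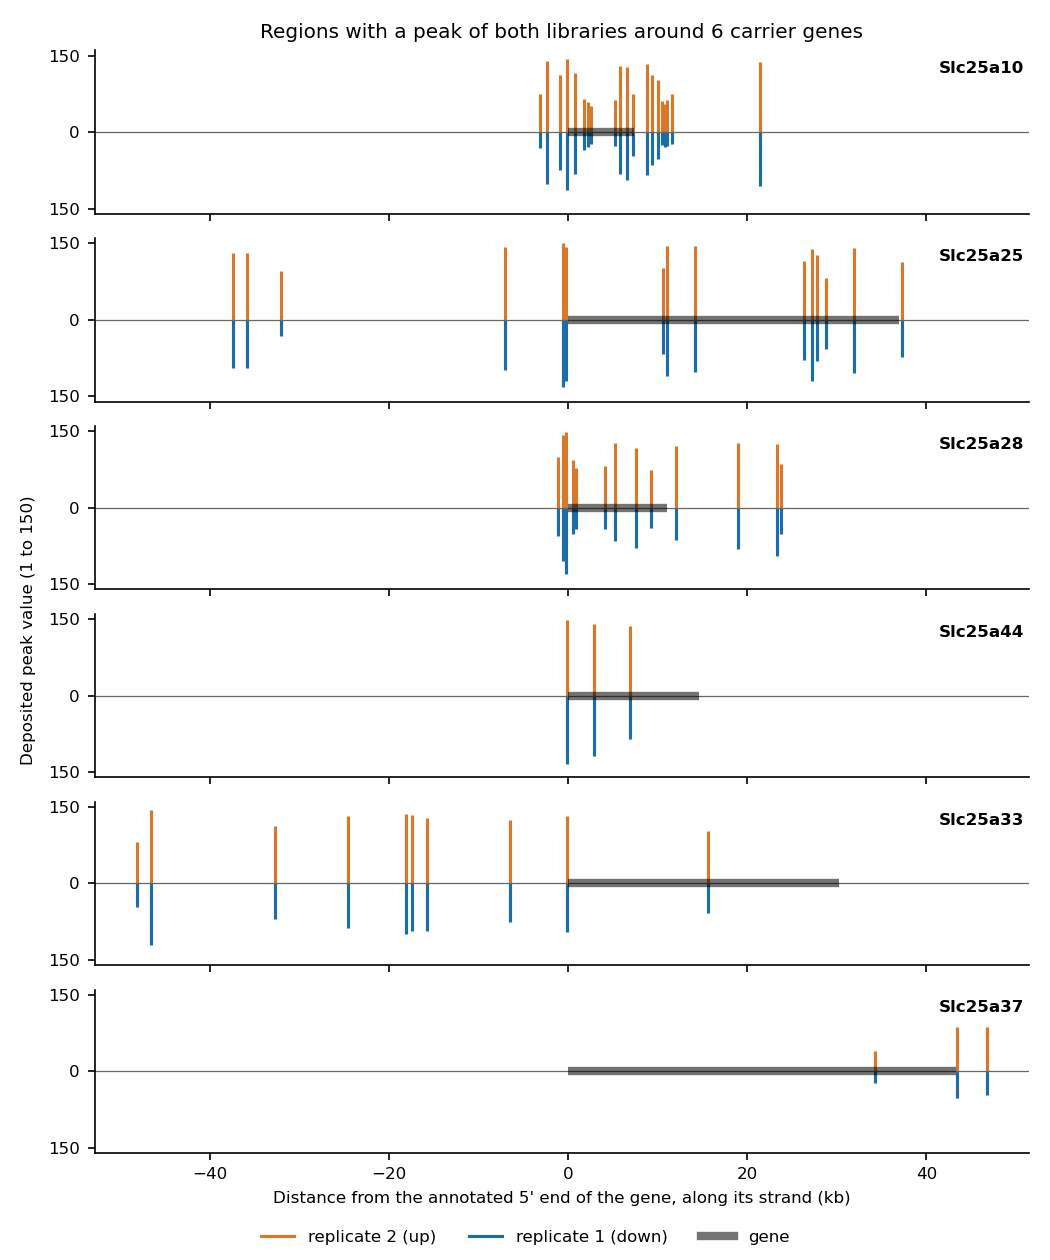
Value of each region with a peak of both libraries (y axis, deposited value from 1 to 150, replicate 2 upward and replicate 1 downward) by distance from the annotated 5′ end along the gene's strand (x axis, kb), for 6 carrier genes with the gene body in grey. Slc25a10 has 20 regions within 24.7 kb, and Slc25a37 has no region near its 5′ end and 3 near its 3′ end.

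The adenine nucleotide translocase genes differed by isoform. Slc25a4, the muscle and heart isoform by common description (ENSMUSG00000031633.4, chr8:46206797-46211284, minus strand), had its strongest promoter peak at chr8:46211016-46211165, with 101 in replicate 1 and 141 in replicate 2. It had 5 distal shared peaks (5 in replicate 1, 6 in replicate 2, 2.96 expected), the strongest at chr8:46242036-46242205 with 65 and 103. Slc25a5, the isoform of dividing and many other cells (ENSMUSG00000016319.3, chrX:36795651-36798807, plus strand), had promoter values of 90 and 125 at chrX:36795496-36795785. Both of these promoters ranked high in each peak list, at percentiles of 93.0 and 97.4 for Slc25a4 and 88.4 and 90.9 for Slc25a5. Slc25a31, the isoform known from testis (ENSMUSG00000069041.8, chr3:40708855-40726096, plus strand), had a weak region at chr3:40708096-40708285, centred 664 bp before its start, at 16 and 50. Its percentiles were 2.11 and 24.0, the lowest of the 40 in both libraries, and its 1 distal shared peak, chr3:40704956-40705125, was stronger at 65 and 117.

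Slc25a5 had 7 distal shared peaks (8 in replicate 1, 17 in replicate 2, 2.66 expected). The strongest in replicate 1, chrX:36804316-36804485, was intergenic, 7.12 kb past the nearest start, with 115 in replicate 1 and 135 in replicate 2, where chrX:36807856-36808025 was higher at 136. The first of these was above the Slc25a5 promoter itself in both libraries. Its plus-strand sequence, GRCm38, is shown for its single motif, the C/EBP letters in capitals, which were in the central 150 bp of 13 of 172 carrier distal regions (7.56%, against 6.58% of all).
Slc25a5 distal region: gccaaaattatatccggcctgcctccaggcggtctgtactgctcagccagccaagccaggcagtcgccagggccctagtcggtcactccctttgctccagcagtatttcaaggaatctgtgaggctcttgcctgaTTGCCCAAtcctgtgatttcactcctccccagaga

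The calcium-regulated ATP-Mg/phosphate carriers adjust the adenine nucleotide pool of the matrix. Slc25a25 (ENSMUSG00000026819.15, chr2:32414487-32451445, minus strand) had the most promoter regions of the family, 7, spread over several start sites. The strongest, chr2:32451956-32452125, had 131 in replicate 1 and 150, the top of the scale, in replicate 2, and lies in an exon of the divergent gene Naif1. The internal promoter whose sequence is shown above had 119 and 138. The 9 distal shared peaks (9 in replicate 1, 14 in replicate 2, 3.14 expected) ran up to 110 and 144 at chr2:32440296-32440465, in an intron. Slc25a24 had promoter values of 65 and 103 and 4 distal peaks. Slc25a23 had 48 and 104 at a peak centred 468 bp before its start, in an intron of Crb3, and no distal peak.

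The relatives Slc25a41 and Slc25a54 had no promoter peak. For Slc25a41 (ENSMUSG00000011486.14, chr17:57032773-57041654, minus strand), which lacks the calcium-binding part, the nearest peak was 9.58 kb away in replicate 1 and 8.76 kb in replicate 2, and it had no distal peak. For Slc25a54 (ENSMUSG00000027880.6, chr3:109080469-109116687, plus strand) the nearest was 17.3 kb away in both, and its 2 distal shared peaks (2.26 expected) were strongest at chr3:109063116-109063265, with 68 and 88. The body of Slc25a41 lies 2.06 kb from that of the open gene Slc25a23, and the body of Slc25a54 lies 6.46 kb from that of the open gene Slc25a24. The genes of each pair run in the same direction, so their annotated 5′ ends lie further apart than these gaps.

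Among the cofactor carriers, Slc25a33, a pyrimidine nucleotide carrier (ENSMUSG00000028982.9, chr4:149744036-149774277, minus strand), had 95 and 133 at chr4:149774256-149774405. Its 9 distal shared peaks (9 and 28 in the libraries, 4.09 expected) included the strongest carrier distal peak of replicate 1, chr4:149820696-149820865, with 121 and 144, 46.5 kb before the start. Slc25a36, its close relative, had 104 and 138 and 6 distal peaks (7.44 expected). Further members of this role had high promoter values in both libraries: Slc25a42, a coenzyme A carrier, at 130 and 149, Slc25a17, a peroxisomal carrier of cofactors, at 116 and 143, Slc25a32, the folate or FAD carrier, at 113 and 140, Slc25a16, linked to coenzyme A, at 94 and 129, and Slc25a51, the NAD carrier, at 93 and 142. Their distal shared peaks numbered 3, 5, 1, 2 and 2 in that order.

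Amino acid carriers ranged from the top of the peak lists to no peak. Slc25a44, which brings branched-chain amino acids into mitochondria (ENSMUSG00000050144.13, chr3:88410498-88425139, minus strand), had 135 in replicate 1 and 148 in replicate 2 at chr3:88425136-88425285, percentiles 99.8 and 99.6. It had 2 distal shared peaks (2 in replicate 1, 7 in replicate 2, 0.662 expected), both in its introns. The first, chr3:88422136-88422285, had 119 and 141, percentiles 98.1 and 97.4, and the second had 86 and 136. All 3 shared sites of this gene were thus high. The first distal one is shown on the plus strand, GRCm38, with EBF letters in capitals. Those letters were in the central 150 bp of 17 of 172 carrier distal regions (9.88%, against 5.64% of all distal shared peaks).
Slc25a44 intronic region: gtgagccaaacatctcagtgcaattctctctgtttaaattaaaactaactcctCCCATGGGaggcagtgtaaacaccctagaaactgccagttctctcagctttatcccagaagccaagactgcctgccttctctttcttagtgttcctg

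The aspartate-glutamate carriers, which complete the malate-aspartate shuttle, had lower promoter values than Slc25a44. Slc25a12 (ENSMUSG00000027010.16, chr2:71271063-71367749, minus strand) had 86 in replicate 1 and 134 in replicate 2 at chr2:71367676-71367865, with 5 distal shared peaks (5 and 14 in the libraries, 4.67 expected), the strongest at chr2:71297636-71297785 with 62 and 106. Slc25a13 (ENSMUSG00000015112.15, chr6:6041218-6217173, minus strand) had 43 and 102 at chr6:6217136-6217285, percentiles 47.1 and 78.3. It had 14 distal shared peaks (16 and 20 in the libraries, 12.8 expected from a territory of 258 kb), up to 85 and 124 at chr6:6101816-6101965, so its count was near what its length gives. The liver isoform by common description, Slc25a13, was thus below Slc25a12 at the promoter in both libraries. Of the glutamate carriers, Slc25a22 had 70 and 121 and no distal peak in a territory of 0.364 kb. Slc25a18 had 31 and 60, percentiles 26.6 and 38.7, and 3 distal peaks.

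Slc25a26, the S-adenosylmethionine carrier (ENSMUSG00000045100.11, chr6:94500331-94604672, plus strand), had the most distal shared peaks of the family, 15 (15 in replicate 1, 37 in replicate 2, 9.07 expected). The strongest, chr6:94563656-94563805, in an intron, had 112 in replicate 1 and 136 in replicate 2, and the promoter at chr6:94500236-94500385 had 98 and 135. Slc25a39, a glutathione carrier, had the highest promoter value of the family in replicate 1, 136, with 148 in replicate 2, and its relative Slc25a40 had 106 and 140. Both had 2 distal shared peaks, with 0.585 expected at Slc25a39 and 5.12 at Slc25a40. Slc25a38, the glycine carrier of heme synthesis, had 109 and 137 and no distal peak. Slc25a15, the ornithine carrier, had 89 and 133 and 2 distal peaks, and Slc25a45 had 92 and 137 and 1.

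Slc25a29, a carrier of basic amino acids, and Slc25a47, known as a liver carrier (ENSMUSG00000048856.9, chr12:108836046-108856815, plus strand), begin 0.162 kb apart in opposite directions. Both were credited with the same strongest peak, chr12:108835876-108836045, at 105 in replicate 1 and 141 in replicate 2. A second region, chr12:108836156-108836365, at 83 and 124, was also within 1000 bp of both starts. Slc25a47 had 1 distal shared peak (1 and 3 in the libraries, 1.14 expected), chr12:108857696-108857845, at 64 and 122, and Slc25a29 had 2 (0.687 expected). Counted from protein-coding transcripts alone, Slc25a47 had no accessible promoter, and the peak cannot be given to one gene.

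Slc25a2 and Slc25a48 had no promoter peak. The ornithine carrier gene Slc25a2 (ENSMUSG00000050304.3, chr18:37637377-37638745, minus strand), a close copy of Slc25a15, had its nearest peak 3.87 kb away in replicate 1 and 3.99 kb in replicate 2, and no distal peak was assigned to it in a territory of 60.9 kb (3.01 expected). Slc25a48 (ENSMUSG00000021509.5, chr13:56438355-56474239, plus strand) had its nearest peak 3.70 and 2.56 kb away. Its 3 distal shared peaks (3 and 6 in the libraries, 1.28 expected) were weak, the strongest being chr13:56449596-56449765 with 21 and 52, percentiles 8.12 and 27.0. The accessible members closest to the edge of the promoter window were Slc25a31 and Slc25a21, with their nearest peaks 0.644 and 0.753 kb away in replicate 1. Of the members without a promoter peak, Slc25a48 came closest, with its nearest peaks still well beyond the edge.

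The iron carriers of mitochondria, the mitoferrins, differed between the relatives. Slc25a28, the general mitoferrin (ENSMUSG00000040414.8, chr19:43663801-43674881, minus strand), had 129 in replicate 1 and 149 in replicate 2 at the peak shown above, percentiles 99.5 and 99.8. It had 6 promoter regions and 7 distal shared peaks (7 and 16 in the libraries, 1.88 expected). The strongest in replicate 1 was chr19:43651456-43651705 with 95 and 125, and chr19:43655856-43656005 and chr19:43669496-43669665 were higher in replicate 2 at 126 each. Slc25a37, the mitoferrin of red cell precursors (ENSMUSG00000034248.7, chr14:69241848-69285112, minus strand), had no promoter peak, and the peak nearest to a start was 33.5 kb away in replicate 1 and 34.1 kb in replicate 2. Its 3 distal shared peaks (4 and 3 in the libraries, 2.46 expected) all lay toward or past its 3′ end, the strongest at chr14:69241656-69241825 with 52 and 87. Alas2, the red cell enzyme of heme synthesis, also had no promoter peak, whereas Alas1, its general counterpart, had 65 and 99.

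Slc25a3, the phosphate carrier (ENSMUSG00000061904.12, chr10:91116574-91124059, minus strand), had 115 in replicate 1 and 146 in replicate 2 at chr10:91123976-91124145. It had no distal shared peak in a territory of 21.6 kb (0 and 1 in the libraries, 1.07 expected). A second promoter region, chr10:91123276-91123465, had 61 and 105. The members related to uncoupling proteins all had a promoter peak: Slc25a14 at 92 and 129, Slc25a27 at 91 and 139 and Slc25a30 at 95 and 140. Slc25a30 (ENSMUSG00000022003.7, chr14:75760117-75787037, minus strand; promoter peak chr14:75786996-75787165) had 7 distal shared peaks (7 and 9 in the libraries, 2.40 expected), the strongest at chr14:75803196-75803345 with 98 and 130. Slc25a14 had 1 and Slc25a27 none. A further intergenic region of Slc25a30, chr14:75803916-75804105, held the only glucocorticoid response element among the central 150 bp of the 172 carrier distal regions (0.581%, against 0.475% of all), in capitals in the plus-strand sequence of GRCm38.
Slc25a30 distal region: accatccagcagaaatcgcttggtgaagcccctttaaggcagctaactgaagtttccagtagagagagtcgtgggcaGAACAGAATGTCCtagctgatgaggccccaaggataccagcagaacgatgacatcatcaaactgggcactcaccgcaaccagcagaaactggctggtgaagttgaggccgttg

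Of the remaining members, Slc25a46, an outer membrane protein that acts in mitochondrial shape, had 100 in replicate 1 and 135 in replicate 2 and no distal peak. Slc25a53, without a settled substrate, had 69 and 132 and 3 distal peaks. Slc25a43 (ENSMUSG00000037636.6, chrX:36743659-36777202, plus strand), also without one, had no promoter peak, and its nearest peak was 17.4 kb away in replicate 1 and 4.96 kb in replicate 2. It nonetheless had 4 distal shared peaks (4 and 12 in the libraries, 3.62 expected), the strongest in an intron at chrX:36761016-36761165 with 71 and 101. None of the 6 carriers without a promoter peak had a hotspot, the broader deposited region of raised cutting, within 1000 bp of a start in either library.

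Agreement between the libraries at carriers was like that at other genes. Of the regions of replicate 1, 86 of 99 promoter regions of carriers had a partner in replicate 2 (86.9%, against 86.4% over all genes), and 172 of 183 distal ones did (94.0%, against 92.2%). Of those of replicate 2, 86 of 114 promoter regions (75.4%, against 68.7%) and 172 of 350 distal regions (49.1%, against 53.9%) had a partner in replicate 1. The peaks of replicate 2 alone were thus mainly distal. In the central 150 bp of the 172 distal regions, AP-1 letters were in 14 (8.14%, against 10% of all distal shared peaks) and NF-Y letters in 1 (0.581%, against 2.82%).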

How the data were processed

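Peaks and hotspots of DNase-seq were used for 2 libraries of 1 group, mapped to mm10 per the labels. The authors deposited a signal value per peak, called on each library separately, and a −log10 q-value per hotspot with a ceiling of 100. The depth is unknown, and no source used here gives the caller, filters, aligner or scaling of the signal, so no interval was attached to a value and signals were only ranked within a library. Each library combined more than 1 technical replicate, per the labels. Whether the spread between the replicates is technical or biological was not tested.

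Identical duplicate lines (20 and 33) and peaks on other sequences (337 and 603) were left out. Shared regions were merged intervals, overlapping by at least 1 bp, with a peak of both libraries. Start sites were those of all 93513 transcript starts of protein-coding genes in GENCODE M21 (GRCm38). Motifs were searched in the GRCm38 RefSeq sequence with Python 3.11.15, pandas 2.3.3 and pysam 0.24.0. The C/EBP and EBF letters are short and match often by their length. No test was run, as there is 1 group. The procedures were tested on simulated data.

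The members, gene lists and motifs were chosen with earlier results of these data known. All members are named but 1, which is counted and is not reported here. By rule, full values are given for those without a promoter peak, for the 10 with the most distal peaks, and for 14 members fixed by name. The regions whose sequences are printed were chosen after their values and motifs were seen. Protein sequences were not used here, so the planned identity between related carriers was not computed.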

Additional observations from a re-analysis of the deposited data

How the results depend on the processing

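The 40 carriers with an accessible promoter remained 40 with a window of 2500 bp, with peak centres, with hotspots and with either library alone (40 to 40). They were 38 with 500 bp (without Slc25a21 and Slc25a31) and 36 with the stronger 50% of peaks (without Slc25a13, Slc25a18, Slc25a21 and Slc25a31). They were 39 with a shortened list (without Slc25a31), protein-coding transcripts only (without Slc25a47) or 1 start per gene (without Slc25a21). Over all genes the share was 63.2% with 2500 bp, 56.8% with peak centres and 57.6% with hotspots. It was 57.5% with replicate 1 alone and 61.7% with replicate 2 alone. It was 54.4% with 500 bp, 51.4% with the stronger 50% and 55.5% with a shortened list. With protein-coding transcripts only it was 55.1%, and with 1 start per gene 51.4%. The ratio of distal shared peaks to expectation, 1.33, was 1.45 within 20 kb, 1.56 with the stronger 50% of peaks, 1.58 with protein-coding transcripts only, 1.45 with 1 start per gene and 1.29 to 1.44 with 1 library left out, and it was above 1 in every setting run. The 172 distal shared peaks numbered 102 with the stronger 50% and were 186 to 357 with 1 library left out. The members with a distal peak were 36 to 39 with 1 library left out. The share of all genes with one was 69.3% without replicate 2 and 76.7% without replicate 1. With 1 library left out the median per member was 2.50 to 4. That median equalled the one over all genes within 50 kb (2), with a 50% overlap (2) and with the stronger 50% (1), and was above it within 20 kb and with a shortened list (2 against 1 in both) and with coding transcripts or 1 start per gene (3 against 2 in both). In the central 150 bp of the strongest promoter peaks, in place of windows, the NF-Y share was 20%, against 9.11% over all genes. YY1 and DR1 were at 0.00%, against 1.79% and 0.423%. SP/KLF was at 7.50% (against 13.7%), C/EBP at 2.50% (against 3.43%) and EBF at 12.5% (against 9.23%). ETS letters were in 6 of 40 carrier peaks, against 14.3% over all genes, so these shares were close. The causes of these changes were not tested. Single distal counts depend most on the library. Larger relative changes occurred for 27 of 46 members with replicate 2 alone, for 1 with replicate 1 alone, and for 13 with assignment within 20 kb. Smaller changes are not in these counts. Examples are Slc25a13, from 14 to 20 with replicate 2 alone, and Slc25a10, from 14 to 16 with replicate 1 alone. The unknown depth limits what an absent peak shows. No paired analysis was possible because the labels give 1 group, so nothing was compared between groups.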
